A study of Mus musculus with 8 samples.

Results

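The genes described here encode the enzymes that carry out fatty acid β-oxidation in the mitochondrial matrix after the first dehydrogenation, together with the proteins that pass its electrons to the respiratory chain. They are Hadha, Hadhb, Hadh, Echs1, Eci1, Eci2, Decr1, Acaa2, Etfa and Etfdh. They were chosen by name, as 10 of the 27179 genes in the counts, and all 10 passed the filter on low counts that left 14966 genes for testing. RNA was measured in neonatal cardiomyocytes (NCMs) of male C57Bl/6J pups on postnatal day 0. Their dams breathed filtered air (FA) or diesel exhaust (DE) from E0.5 to E17.5 of gestation, so the pups were exposed in utero only. Each library came from the NCMs of 1 heart, with 4 libraries from FA pups (replicates 2, 3, 4 and 6) and 4 from DE pups (replicates 1, 3, 5 and 7). The labels give no other difference between the groups than exposure and a prefix of the sample names. The hearts had been trimmed of vascular and atrial tissue, and the released cells were filtered. Fibroblasts were then left to attach to a plate in medium with Ara-C, and no sorting of the cells is described.

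In each turn of the β-oxidation spiral, an acyl-CoA is dehydrogenated, hydrated, dehydrogenated again and cleaved by a thiolase to release acetyl-CoA. For long chains, the last steps are carried out by the trifunctional protein, a complex on the inner mitochondrial membrane built of Hadha and Hadhb subunits, while shorter chains pass to separate matrix enzymes. Double bonds in unsaturated chains need auxiliary enzymes, and the electrons taken by the acyl-CoA dehydrogenases leave through electron transfer flavoprotein (ETF) and its dehydrogenase. The heart turns from glucose and lactate to fatty acids as its main fuel around birth.

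Hadha, Hadhb, Eci2, Decr1, Acaa2 and Etfdh fell in DE NCMs, to between 53.5% and 64.0% of their mean level in FA. None of the 10 genes rose, and Hadh, Echs1, Eci1 and Etfa did not pass the test. A gene was called changed at an adjusted p of 0.05 or less and a difference of at least 25% by the quasi-likelihood test of edgeR, after Benjamini-Hochberg (BH) adjustment over all tested genes. By this rule 6 of the 10 members were called, all lower, against 5.80% of all tested genes called in either direction and 2.22% called lower. The DE libraries lay wholly below the FA libraries for 7 of the 10 members, against 7.26% of all tested genes. With the 25% difference built into the test itself, 5 of the 10 were called, against 0.762% of all tested genes. The median log2 fold change (DE minus FA) of the 10 genes was -0.68, while that of all tested genes was 0.0037. Hadha, Hadhb, Acaa2 and Eci2 were also picked out in the original study from libraries of this series, so their direction here is not independent evidence.

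The promoter windows of Hadhb, Etfdh and Etfa are shown because Hadha and Hadhb start from a shared region and fell by like amounts, whereas Etfa and Etfdh are consecutive steps that differed. Hadha, on the minus strand, and Hadhb, on the plus strand, are read away from each other and their annotated starts lie 272 bases apart. Each window, from RefSeq on GRCm38.p6, runs from 250 bases before to 50 bases after the start, is written 5′ to 3′ along the gene's own strand, and has motif matches in capitals. The motifs, searched on both strands, were the nuclear receptor half-site AGGTCA, its extended form TCAAGGTCA, the CCAAT box, the GC box GGGCGG and the NRF-1 core GCATGCGC.
Hadhb (chr5:30155003-30155302, plus strand): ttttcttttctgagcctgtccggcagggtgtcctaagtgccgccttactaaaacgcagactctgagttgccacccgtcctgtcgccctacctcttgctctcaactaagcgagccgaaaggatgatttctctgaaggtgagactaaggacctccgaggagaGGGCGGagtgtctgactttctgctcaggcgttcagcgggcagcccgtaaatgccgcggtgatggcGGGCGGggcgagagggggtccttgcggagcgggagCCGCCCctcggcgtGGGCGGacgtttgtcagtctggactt
Etfdh (chr3:79628718-79629017, minus strand): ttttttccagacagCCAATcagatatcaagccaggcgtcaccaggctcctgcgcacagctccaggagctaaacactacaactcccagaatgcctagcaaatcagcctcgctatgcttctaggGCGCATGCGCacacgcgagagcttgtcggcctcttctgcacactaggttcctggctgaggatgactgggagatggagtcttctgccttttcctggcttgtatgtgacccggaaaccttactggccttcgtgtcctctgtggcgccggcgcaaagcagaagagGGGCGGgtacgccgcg
Etfa (chr9:55512194-55512493, minus strand): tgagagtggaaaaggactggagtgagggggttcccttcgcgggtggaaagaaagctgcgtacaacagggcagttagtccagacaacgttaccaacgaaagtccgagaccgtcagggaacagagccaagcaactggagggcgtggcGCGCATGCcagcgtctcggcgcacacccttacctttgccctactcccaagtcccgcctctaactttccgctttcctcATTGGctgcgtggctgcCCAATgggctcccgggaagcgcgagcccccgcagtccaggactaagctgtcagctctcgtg
The Hadhb window holds 4 GC boxes and no other motif searched. The Hadha window shares 228 bases with it and holds 1 GC box, which lies in the shared stretch and is also 1 of the 4 of Hadhb. The Etfdh window has 1 CCAAT box, 1 GC box and an NRF-1 core that is read on both strands in overlapping matches. The Etfa window has 2 CCAAT boxes and 1 NRF-1 core, and no GC box.
A window was searched for 8 of the 10 members, all but Decr1 and Acaa2. A GC box was found in 7 of these 8, and in 35.66% of the 32851 windows searched. These 32851, which do not cover every gene, are meant by all windows below. The members' windows held 14 to 24 CpG each, against a median of 7 over all windows, and the GC box itself contains a CpG. The NRF-1 core was found in 2.71% of all windows. The half-site AGGTCA was found in 16.26% of all windows and, among the members, only in that of Echs1. The extended half-site was found in 0.42% of all windows and in no member's. CCAAT was found in 37.41% of all windows and in those of Hadh, Eci2, Etfa and Etfdh. These are matches of letters in a short window, and binding was not measured.

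Totals lay between 17943024 and 39839737 counted fragments per library, and each member had at least 1759 counts in every library. CPM are counts relative to library size after scaling by TMM factors. The prefix in the sample names, whose meaning the sources do not give, is 11 for all FA libraries and for DE replicates 1 and 7, and 12 for DE replicates 3 and 5. The 6 cardiomyocyte markers were present in all libraries and summed to 49306 to 54345 CPM in FA and 37330 to 43559 CPM in DE. All 6 were lower in DE, and Myh6 and Pln were called. The DE means were at 62.8% of FA for Myh6, 65.1% for Ryr2 and 76.7% for Pln. They were at 86.9% for Actc1, 95.9% for Tnnt2 and 96.1% for Tnni3. Myh6, the largest part of the sum, averaged 23299 CPM in FA and 14622 CPM in DE. The 5 fibroblast markers summed to 1013 to 1723 CPM in FA and 1959 to 3038 CPM in DE. All 5 were higher, and Col1a1 and Dcn were called. Among 5 brown adipocyte markers, Cidea was called lower (log2 fold change -0.92), while Ucp1 averaged 0.619 CPM in FA and 1.02 CPM in DE, and Adipoq, Plin1 and Elovl3 had 13, 3 and 16 counts in all. Together they summed to 14.5 to 19.7 CPM in FA and 8.47 to 11.2 CPM in DE. In 7 further lists, 0 of 29 tested markers were called by edgeR, against 5.80% of all tested genes. In edgeR 7 had an unadjusted p under 0.05, against 3828 of all 14966 tested genes. DESeq2 called 4 (Emcn, Cd68 and Apoa1 higher, Nppa lower), against 10.9% of all tested genes. These counts lie near the shares over all genes. Higher in DE were 5 of 5 endothelial, 4 of 5 smooth muscle and pericyte, 3 of 4 leukocyte and 4 of 4 erythroid markers. So were 3 of 4 atrial, 1 of 2 hepatocyte and 3 of 5 skeletal muscle markers. Albumin (Alb) had 3 counts in all. The part of other cells in the results below was not tested, and in bulk RNA fewer cells of a type and less RNA per cell cannot be told apart.

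**Figure D1:**
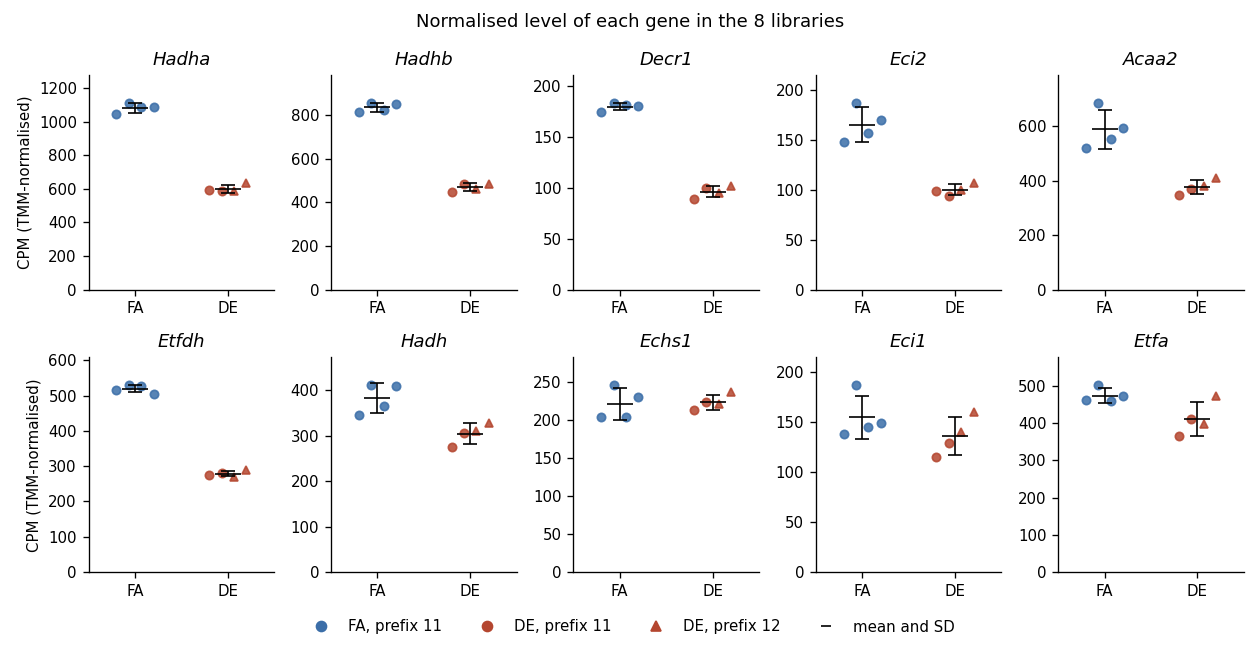
CPM of each of the 10 genes in the 4 FA and 4 DE libraries, 1 point per library, with bars for the mean ± SD (n = 4). Hadha, Hadhb, Hadh, Eci2, Decr1, Acaa2 and Etfdh show no overlap between the groups, whereas Echs1, Eci1 and Etfa overlap.

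Transcripts of both subunits of the trifunctional protein fell. Positions are on GRCm38.p6. Hadha (Entrez gene 97212, chromosome 5 from 30119423 to 30154980), the subunit with long-chain enoyl-CoA hydratase and hydroxyacyl-CoA dehydrogenase activity, was at 1043, 1112, 1085 and 1085 CPM in FA replicates 2, 3, 4 and 6. It was at 596, 586, 636 and 584 CPM in DE replicates 1, 3, 5 and 7. Every DE library lay far below every FA library, and the libraries of a group were close to each other. The mean fell from 1081 ± 28.4 to 600.5 ± 24.2 CPM (mean ± SD, n = 4), with log2 fold change -0.85 ± 0.08 (SE, BH-adjusted p = 0.000414 by edgeR).
Hadhb (Entrez gene 231086, chromosome 5 from 30155253 to 30184593), the subunit with long-chain thiolase activity, was at 816, 858, 824 and 851 CPM in the FA replicates in the same order. In the DE replicates it was at 449, 461, 487 and 483 CPM. No DE library reached the FA libraries here either. Hadhb fell from 837 ± 20.3 to 469.9 ± 18.1 CPM (mean ± SD, n = 4), with log2 fold change -0.83 ± 0.08 (SE, BH-adjusted p = 0.000441 by edgeR).
The ratio of Hadha to Hadhb counts within a library does not depend on the scaling between libraries. It ranged from 1.27 to 1.32 in FA and from 1.21 to 1.33 in DE, so the DE range enclosed the FA range. The mean log2 ratio differed by -0.015 (exact two-sided permutation test, p = 0.743, adjusted p = 0.743 over 8 pairs).

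The separate matrix enzymes did not move alike. Echs1 (Entrez gene 93747, chromosome 7 from 140105710 to 140116421), the short-chain enoyl-CoA hydratase, was at 204, 245, 203 and 230.1 CPM in FA replicates 2, 3, 4 and 6 and at 212, 221, 236 and 224 CPM in DE replicates 1, 3, 5 and 7. All 4 DE libraries lay inside the range of the FA libraries. The means were 221 ± 20.7 and 224 ± 9.88 CPM (mean ± SD, n = 4), with a log2 fold change of 0.02 (95% interval -0.19 to 0.23, BH-adjusted p = 0.923 by edgeR). The sign of this value turned under other settings, as far as -0.08. Echs1 overlaps Paox in the annotation, which had 1277 counts in all against 49253 for Echs1.
Hadh (Entrez gene 15107, chromosome 3 from 131233419 to 131272101), the hydroxyacyl-CoA dehydrogenase for short and medium chains, was at 345, 411, 365 and 409 CPM in FA and at 274, 311, 328 and 307 CPM in DE. The highest DE library lay just under the lowest FA library. The means of 382 ± 32.6 and 305 ± 22.3 CPM (mean ± SD, n = 4) gave a log2 fold change of -0.33 (standard error 0.10) that was not called, with an adjusted p of 0.0759 and an unadjusted p of 0.00697 in edgeR. Hadh was called by DESeq2 (adjusted p = 0.0189) and in edgeR once trends of the libraries with transcript length and GC content were removed by offsets (adjusted p = 0.00401). Over 18 alternatives its adjusted p ran from 0.00401 to 0.904, the latter with the 25% difference built into the test.
Acaa2 (Entrez gene 52538, chromosome 18 from 74779212 to 74806207), a thiolase for medium and shorter chains, was at 520.2, 685, 553 and 593 CPM in FA and at 348, 381, 408 and 368 CPM in DE. The groups did not overlap, and FA replicate 3 stood above the other FA libraries. Acaa2 fell from 588 ± 71.4 to 376 ± 25.02 CPM (mean ± SD, n = 4), with log2 fold change -0.64 ± 0.11 (SE, BH-adjusted p = 0.00891 by edgeR). With the 25% difference built into the test it was not called (adjusted p = 0.0911, the highest over 18 alternatives, of which the lowest was 1.23e-06).

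Within libraries, the ratio of the enzymes for shorter chains to the trifunctional protein differed between FA and DE for the hydratase and the dehydrogenase and was not shown to differ for the thiolases. Echs1 counts per Hadha count lay at 0.187 to 0.221 in FA and 0.357 to 0.383 in DE, a log2 difference of 0.87. For Hadh per Hadha the ranges were 0.331 to 0.376 and 0.460 to 0.530, a log2 difference of 0.52. Neither ratio overlapped between the groups (exact two-sided permutation test, p = 0.0286 each, the smallest that 4 libraries against 4 allow, adjusted p = 0.0457). Acaa2 per Hadhb, the pair of thiolases, overlapped, with 0.637 to 0.798 in FA and 0.763 to 0.838 in DE, and differed by 0.20 on the log2 scale (exact two-sided permutation test, p = 0.0857, adjusted p = 0.114). The offsets for length and GC content lowered the differences to 0.76 for Echs1 per Hadha, 0.43 for Hadh per Hadha and 0.09 for Acaa2 per Hadhb. Pairs that share a gene are not independent of each other.

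**Figure D2:**
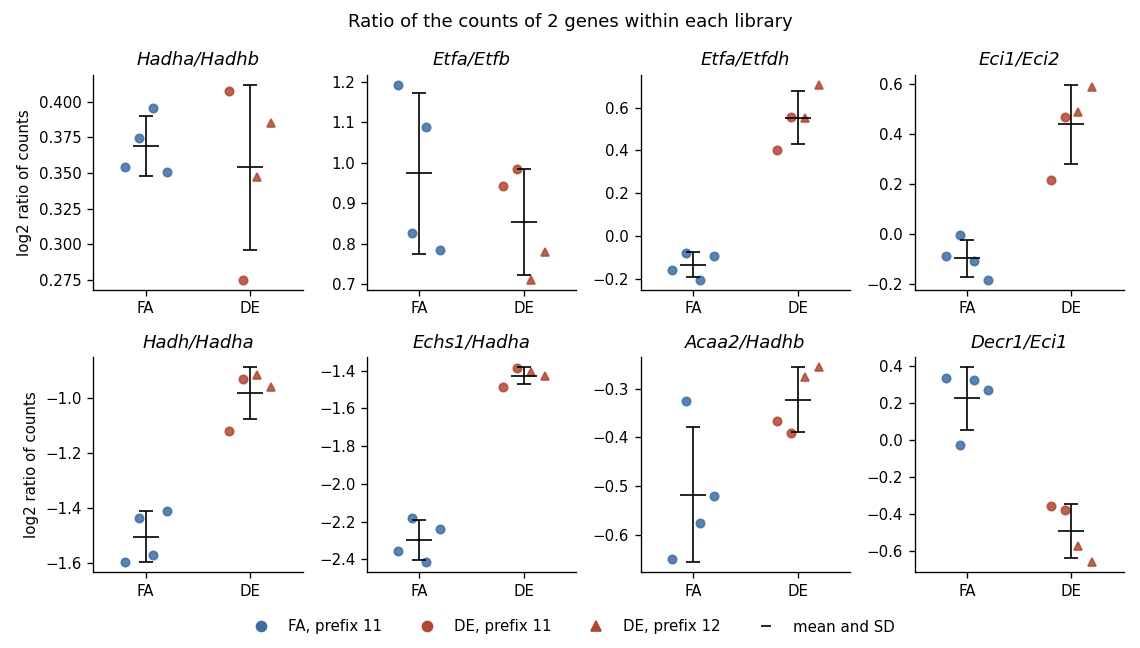
Ratio of counts within each library for the 8 pairs of genes, 1 point per library, FA beside DE. The groups separate for Etfa/Etfdh, Eci1/Eci2, Hadh/Hadha, Echs1/Hadha and Decr1/Eci1 and overlap for Hadha/Hadhb, Etfa/Etfb and Acaa2/Hadhb.

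Of the auxiliary enzymes for unsaturated chains, Decr1 and Eci2 fell and Eci1 was not called. Decr1 (Entrez gene 67460, chromosome 4 from 15917240 to 15945377), the mitochondrial dienoyl-CoA reductase, was at 175, 183, 181 and 179.9 CPM in FA replicates 2, 3, 4 and 6. In DE replicates 1, 3, 5 and 7 it was at 89.4, 94.4, 101 and 99.5 CPM. The FA libraries were almost level with each other and no DE library came near them. Decr1 fell from 179.8 ± 3.77 to 96.2 ± 5.43 CPM (mean ± SD, n = 4), with log2 fold change -0.90 ± 0.09 (SE, BH-adjusted p = 0.000290 by edgeR).
Eci2 (Entrez gene 23986, chromosome 13 from 34977748 to 35027115), an enoyl-CoA isomerase that is also found in peroxisomes, was at 148, 187, 157 and 169.9 CPM in FA and at 98.9, 100.2, 107 and 93.8 CPM in DE. The DE libraries lay close together, below the more scattered FA libraries. The mean fell from 165 ± 17.3 to 99.95 ± 5.43 CPM (mean ± SD, n = 4), with log2 fold change -0.73 ± 0.10 (SE, BH-adjusted p = 0.00300 by edgeR). Its close paralog Eci3 had 91 counts in all, against 28316 for Eci2.
Eci1 (Entrez gene 13177, chromosome 17 from 24426683 to 24439316), the isomerase of the matrix, was at 139, 187, 145 and 149.5 CPM in FA and at 115, 140.3, 161 and 129 CPM in DE. The groups overlapped, with DE replicate 5 above all FA libraries except replicate 3. The log2 fold change of -0.19 (95% interval -0.47 to 0.10, BH-adjusted p = 0.390 by edgeR) was not called, and it was -0.27 without DE replicate 5 and -0.09 without FA replicate 3. It was called with the offsets for length and GC content (log2 fold change -0.35, adjusted p = 0.0187, the lowest over 18 alternatives, of which the highest was 1.00 with the 25% difference built into the test).
The isomerases also differed from each other within libraries. Eci1 counts per Eci2 count lay at 0.880 to 0.997 in FA and 1.16 to 1.502 in DE, so that Eci2 had more counts than Eci1 in every FA library and fewer in every DE library. The log2 difference was 0.53, and that of Decr1 per Eci1 was -0.72, with ranges of 0.982 to 1.26 and 0.632 to 0.779 (exact two-sided permutation test, p = 0.0286 and adjusted p = 0.0457 for each). With the offsets, Decr1 per Eci1 differed by -0.52.

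The transcript of the ETF dehydrogenase fell, and those of the subunits of ETF itself were not called. Etfdh (Entrez gene 66841, chromosome 3 from 79603788 to 79628767), which takes electrons from ETF and reduces ubiquinone, was at 517, 529, 528 and 506 CPM in FA replicates 2, 3, 4 and 6. It was at 276, 271, 289.6 and 281 CPM in DE replicates 1, 3, 5 and 7. Both groups were tight and far apart. Etfdh fell from 519.7 ± 10.8 to 279 ± 8.09 CPM (mean ± SD, n = 4), with log2 fold change -0.90 ± 0.08 (SE, BH-adjusted p = 0.000212 by edgeR), the smallest adjusted p of the 10 genes and the 16th smallest p of all tested genes. Etfdh overlaps Ppid in the annotation, which had 11736 counts in all against 85010 for Etfdh, and how the counting divided shared fragments is not known.
Etfa (Entrez gene 110842, chromosome 9 from 55454436 to 55512243), the alpha subunit of ETF, was at 463, 501, 458 and 474 CPM in FA and at 364, 396, 473 and 412 CPM in DE. DE replicate 5 lay inside the FA range and the other DE libraries below it. The log2 fold change of -0.20 (95% interval -0.42 to 0.02, BH-adjusted p = 0.225 by edgeR) was not called. With the offsets it was -0.28 (adjusted p = 0.0334, the lowest over 18 alternatives, of which the highest was 1.00), still under the 25% difference. Its partner Etfb (Entrez gene 110826, chromosome 7 from 43444072 to 43457800), the beta subunit, averaged 244 ± 40.7 CPM in FA and 229 ± 38.0 CPM in DE (mean ± SD, n = 4), with log2 fold change -0.09 ± 0.15 (SE, BH-adjusted p = 0.729 by edgeR).
Etfa counts per Etfdh count lay at 0.868 to 0.948 in FA and 1.32 to 1.63 in DE, a log2 difference of 0.69 (exact two-sided permutation test, p = 0.0286, adjusted p = 0.0457). Every FA library thus held fewer Etfa than Etfdh counts, and every DE library more. The ratio of Etfa to Etfb lay at 1.72 to 2.29 in FA and 1.64 to 1.98 in DE and overlapped (log2 difference -0.12, exact two-sided permutation test, p = 0.371, adjusted p = 0.424). This difference ran from -0.18 without FA replicate 6 to -0.05 without FA replicate 2, and was -0.01 among libraries of prefix 11 alone and 0.04 with the offsets.

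**Figure D3:**
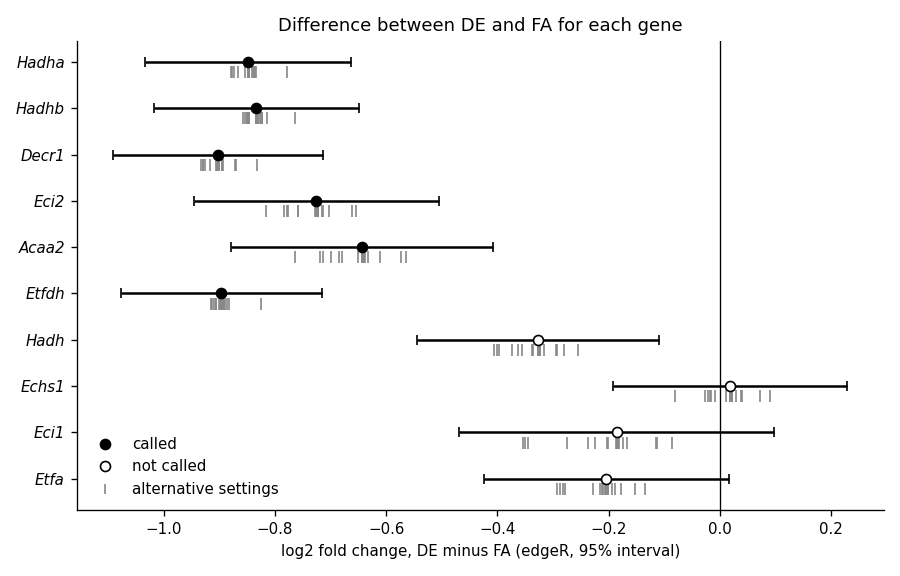
Log2 fold change (DE minus FA) of each of the 10 genes with its 95% interval, from edgeR's quasi-likelihood fit over 8 libraries. Decr1, Etfdh, Hadha, Hadhb, Eci2 and Acaa2 lie between -0.90 and -0.64 and are called, while Hadh, Etfa, Eci1 and Echs1 lie between -0.33 and 0.02 and are not.

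Summed over the 10 genes, 4369 to 4899 CPM were counted in the FA libraries and 2822 to 3226 CPM in the DE libraries, and their raw counts made up 0.423% to 0.475% and 0.291% to 0.325% of the library totals. To compare levels between genes, CPM were divided by a transcript length in kb. This was the longest transcript of the gene with a RefSeq entry, or the longest of all where none had one. On this scale Hadhb was the highest in FA, at 409 ± 9.91 CPM per kb, followed by Acaa2 at 388 ± 47.1 and Etfa at 341 ± 13.8 (mean ± SD, n = 4). Neighbours in this order overlapped between libraries, Hadhb with Acaa2 and Acaa2 with Etfa. Hadha at 269 ± 7.08, Etfdh at 219 ± 4.53 and Hadh at 214 ± 18.2 CPM per kb came next, with overlap between the last pair. Echs1 at 142 ± 13.3, Eci1 at 136 ± 19.1, Eci2 at 94.7 ± 9.89 and Decr1 at 60.8 ± 1.27 CPM per kb ended the order, and of these only Echs1 and Eci1 overlapped.
In DE the order opened with Etfa at 296 ± 32.8 CPM per kb, then Acaa2 at 248 ± 16.5 and Hadhb at 229 ± 8.84 (mean ± SD, n = 4), again with overlap between neighbours. Hadh, Hadha, Echs1, Eci1 and Etfdh followed, from 170.4 ± 12.5 down to 117 ± 3.40 CPM per kb, each overlapping with the next. Eci2 at 57.2 ± 3.11 and Decr1 at 32.5 ± 1.83 CPM per kb remained the lowest, without overlap. The value of Hadha here depends on the transcript taken for its length. The 6 called genes had transcripts of 1516 to 4017 bases (median 2212) and the 4 others of 1137 to 1789 bases (median 1474), so length moved with the call. The same 6 were called with the offsets for length and GC content, which added Hadh and Eci1, against 11.6% of all genes tested there.

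Within each group, the same library was often at the end of the range. FA replicate 3 was the highest FA library for all 10 genes, against 30.7% of all tested genes, and DE replicate 5 the highest DE library for all 10, against 29.2%. FA replicate 2 was the lowest FA library for 7 of the 10, against 23.7% of all tested genes, and DE replicate 1 the lowest DE library for 7, against 24.1%. With each library left out in turn, 6 members were called every time, against 1.53% to 7.93% of all tested genes. Leaving out FA replicate 3 gave the log2 fold change nearest to 0 for Acaa2, at -0.56.
The name prefix separates samples within DE only. Prefix 12 was above prefix 11 within DE in all 10 genes, by 0.01 to 0.30 on the log2 scale, with 0 called by edgeR and 0 at an unadjusted p under 0.05 (smallest adjusted p = 0.265). This contrast set 2 DE libraries against 2, and the shares of all tested genes were not counted for it. Among libraries of prefix 11 alone, 4 FA against 2 DE, the log2 fold changes were -0.88 for Hadha, -0.85 for Hadhb, -0.93 for Decr1, -0.78 for Eci2, -0.72 for Acaa2 and -0.91 for Etfdh, and these 6 were called, against 1.75% of all tested genes. Hadh, Eci1, Etfa and Echs1 were at -0.40, -0.35, -0.29 and -0.02 and were not called.

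Other genes of the pathway were read from the same fit. Of 14 other genes of mitochondrial β-oxidation and the carnitine shuttle, 12 were lower and 2 higher, at a median of -0.42 on the log2 scale. The 7 that were called all fell, and 10 were called with the offsets for length and GC content and 5 with the 25% difference built into the test. By adjusted p these were led by Cpt1a (-1.49) and Slc25a20 (-1.12), which bring acyl groups to and across the inner membrane, Cpt1b (-0.98), the muscle form of carnitine palmitoyltransferase, Cpt2 (-0.88), which returns them to CoA, and Acadvl (-0.71), the very-long-chain acyl-CoA dehydrogenase that feeds the trifunctional protein.
Of 16 peroxisomal β-oxidation genes, 12 were lower and 4 higher, with a median of -0.20. Among the 16, 4 were called, all lower, against 5.80% of all tested genes called and 2.22% called lower. They included Abcd3 (-0.80), a fatty acid transporter of the peroxisomal membrane, and the multifunctional enzyme Hsd17b4 (-0.38). The count of 4 fell to 1 without FA replicate 2 or without FA replicate 4, and among libraries of prefix 11 alone. Of all tested genes, 1.69%, 1.53% and 1.75% were called in these settings.
ETF and its dehydrogenase also serve flavoproteins of amino acid and other metabolism. Of 8 such genes, 7 were tested, with 3 lower and 4 higher, a median log2 fold change of 0.0014 and values from -0.29 to 0.24. None of the 7 was called by edgeR, against 5.80% of all tested genes. In edgeR 2 had an unadjusted p under 0.05, against 3828 of all 14966 tested genes. DESeq2 called 0, against 10.9% of all tested genes, and no other alternative run called any. With 7 genes, counts this low lie near the shares over all genes and do not set the list apart.

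**Figure D4:**
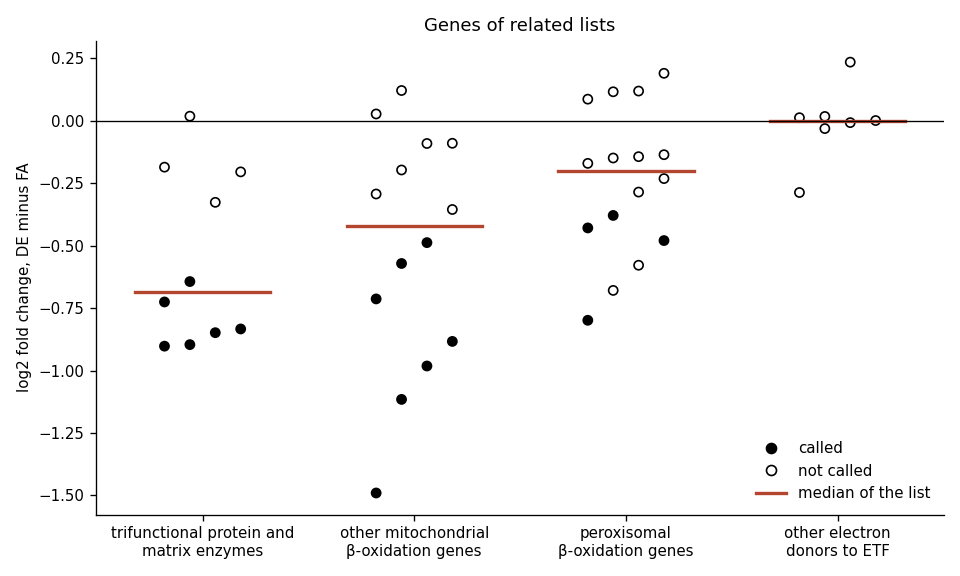
Log2 fold change (DE minus FA) of every tested gene in the 10 members and the 3 other lists, 1 point per gene, with called genes marked and the median of each list drawn. The medians are -0.68 for the members, -0.42 for the other mitochondrial genes, -0.20 for the peroxisomal genes and 0.0014 for the other electron donors to ETF.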

How the data were processed

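Poly-A RNA of 8 NCM libraries was sequenced with a stranded kit. The deposited values are raw fragment counts per Entrez gene, without normalization. The authors aligned reads to mm10 (GRCm38) with Tophat, marked duplicates without removing them, used GATK for realignment and counted with featureCounts. The strand setting and the treatment of fragments on several genes are not given in the sources used here, which leaves overlapping genes uncertain, and retained duplicates make counting precision look better than it is. The methods give n = 3 per group without naming libraries, so all 8 deposited libraries were used.

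Of 27179 genes, 25275 were given a symbol through RefSeq. In R 4.3.3, edgeR 4.0.16 filtered genes at a minimum count of 10 (filterByExpr), scaled by TMM and compared DE with FA by glmQLFit and glmQLFTest, with Benjamini-Hochberg adjustment. Genes were called at an adjusted p of 0.05 or less and a fold of 1.25 or more. Each library is 1 pup, and p-values measure the spread between these libraries. Exposure was given to the dams, and the labels name no litters. If pups of a group shared a dam, the p-values would overstate the evidence for a difference by exposure. Replicates of a group were distinct libraries (closest pair, FA replicates 2 and 4, chi-square per gene 5.37). Ratios within libraries were compared over 70 arrangements by an exact two-sided permutation test. Intervals of 95% are per gene, without adjustment.

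The members, lists, pairs and tests were chosen with earlier results of these data known. All members and Etfb were named, and at most the 5 called genes of smallest adjusted p of each other list, of which some are not reported here. The settings varied were DESeq2 1.42.0, the likelihood ratio test of edgeR, limma-voom (limma 3.58.1), the 25% difference built into the test, relative log expression factors, library totals alone, no filter, the name prefix as a term, prefix 11 only, offsets for length and GC content (5-df splines, 13851 genes) and each library left out. Code was tested on simulated counts.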

Additional observations from a re-analysis of the deposited data

How the results depend on the processing

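Against 868 called genes, DESeq2 called 1633, the likelihood ratio test 1603 and the offsets for length and GC content 1612. The 25% difference built into the test left 114, the name prefix as a term 448 and prefix 11 alone 260. Leaving out single libraries gave 237 to 1168, with 249 without FA replicate 2, 433 without FA replicate 3, 237 without FA replicate 4, 268 without DE replicate 3 and 526 without DE replicate 5. Of the 10 members, 6 were called under every alternative except DESeq2 (7), the offsets (8) and the built-in difference (5). Their 180 recomputed fold changes kept direction and call in 170. Echs1 turned negative in 6, at -0.0163 with the prefix term, -0.0211 with prefix 11 alone, -0.0798 with the offsets, and from -0.0263 to 0.0717 when single libraries were left out. The peroxisomal count of 4 fell to 1 with the built-in difference and with prefix 11 alone, and ranged from 1 to 4 without single libraries. With the offsets, added for the ratios after the data were seen, Hadh/Hadha, Echs1/Hadha and Decr1/Eci1 moved to 0.43, 0.76 and -0.52, Acaa2/Hadhb to 0.09, and Etfa/Etfb and Hadha/Hadhb changed sign, to 0.04 and 0.02. Ratios under alternatives carry no test. Library totals alone moved the median of all tested genes to 0.08. The causes were not tested. No paired analysis was possible because the labels link no FA library to a DE library.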
